A study of Mus musculus with 8 samples.

Results

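MHC class II molecules are the surface proteins by which macrophages, dendritic cells and B cells show peptides from engulfed material to CD4+ T cells. Each molecule is a pair of an alpha and a beta chain that is assembled with the invariant chain, loses it in the endosome and is then loaded with peptide with the help of the H2-DM proteins, while the H2-O proteins hold H2-DM back. Ciita, the class II transactivator, does not bind DNA itself but joins a complex of RFX, CREB and NF-Y proteins at the promoters of these genes and switches them on. In macrophages Ciita and its targets are known to be raised by interferon gamma, and cells kept in M-CSF alone have low to moderate levels.

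The 10 genes described here were the rows with the symbols H2-Aa, H2-Ab1, H2-Eb1, H2-DMa, H2-DMb1, H2-DMb2, H2-Oa, H2-Ob, Cd74 and Ciita among 54532 genes of a table of read counts. RNA was sequenced from bone marrow macrophages of wildtype (WT) mice and of mice without Gsdmd (Gsdmd-/-), the gene of the pore-forming protein of pyroptosis, in 4 libraries per genotype. All cells were untreated and had been differentiated for 6 days in M-CSF at 20 ng/ml. The study's culture protocol names female C57BL/6J donors aged 6 to 8 weeks, without a separate statement of the strain, sex and age of the Gsdmd-/- donors. WT mice were bought and Gsdmd-/- mice were kept at a university facility, so genotype and colony cannot be told apart. Separate mice per library are not stated in the sources, and p-values may then measure technical spread only.

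The libraries held from 14935114 to 16794810 counts, and a gene with 0 counts may have had up to 3 counts, which covers counting error only. Levels are given as CPM, the gene's part of the counts of its library after scaling by TMM, a method that corrects for differences in library make-up. Gsdmd itself lay between 63.5 and 95.5 CPM in the WT libraries and between 14.4 and 18.2 CPM in the Gsdmd-/- libraries, a log2 fold change of -2.22 (edgeR quasi-likelihood test, adjusted p = 4.66542e-05). Of 8 macrophage markers, among them Csf1r, Cd68 and Lyz2, all 8 were tested and none passed an adjusted p of 0.05. WT libraries 2 and 3 stood apart from the other libraries, with values of 45.4 and 38.8 on the first principal component (43.6% of the variance) where the others lay between -25.9 and -7.19.

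Apart from Ciita, on chromosome 16 from 10480059 to 10528418, and Cd74, these genes lie in 1 region of chromosome 17, from H2-Oa, which starts at 34092340, to H2-Eb1, which ends at 34316674 (GENCODE M21, build GRCm38). Their promoters share an arrangement of short boxes on which Ciita works, of which the X box is bound by RFX and the Y box, an inverted CCAAT box, by NF-Y. In the RefSeq promoter windows (GRCm38.p6, 250 bases before to 50 after each start), 7 of the 10 genes were matched, and H2-Ab1, Cd74 and Ciita were not. The letters GCAAC followed after 25 to 28 bases by ATTGG, searched on both strands, were in 66 of 32851 windows (0.201%) and in those of H2-Aa, H2-Eb1, H2-Ob and H2-Oa. The spacing was set after these promoters had been read, so the count is a description. The stretches of H2-Aa (chr17:34287859-34287912, minus strand), H2-Eb1 (chr17:34305768-34305820, plus strand) and H2-Ob (chr17:34238810-34238860, plus strand) are printed 5′ to 3′ because they let a classical alpha chain, a classical beta chain and a regulatory chain be compared. The first block of capitals marks GCAAC and the second ATTGG.

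H2-Aa: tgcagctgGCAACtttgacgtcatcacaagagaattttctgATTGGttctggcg

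H2-Eb1: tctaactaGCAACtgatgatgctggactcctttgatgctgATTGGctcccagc

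H2-Ob: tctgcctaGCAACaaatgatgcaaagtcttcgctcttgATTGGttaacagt

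GCAAC began 81 bases before the RefSeq start in H2-Aa, 91 in H2-Eb1 and 87 in H2-Ob. With the first 2 letters left free (AAC, then 25 to 28 bases, then ATTGG), which includes the matches above, 817 windows (2.49%) had a match, and so did 6 of the 7 genes, H2-DMb1 and H2-DMb2 being added. ATTGG alone was in 12289 windows (37.4%) and in those of all 7 genes.

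Of the 8 genes tested, Ciita alone separated the genotypes without overlap, as did 4.12% of all genes tested in the same direction. Its level was 56.4, 54.0, 47.9 and 46.6 CPM in the WT replicates, in order of their number, and 23.3, 21.6, 26.1 and 35.4 CPM in the Gsdmd-/- replicates. Every Gsdmd-/- library lay below every WT library, and the Gsdmd-/- mean was 52.0% of the WT mean. The fall, between means of 51.2 CPM (SD 4.70, n = 4) and 26.6 CPM (SD 6.12, n = 4), was -0.95 on the log2 scale with a standard error of 0.149 (edgeR quasi-likelihood test, adjusted p = 0.0339). These levels rested on between 366 and 926 reads per library. Of 12911 genes tested, 0.349% passed an adjusted p of 0.05, and Ciita was the 1 of the 8 tested genes of the group to do so. Its call depended on which libraries were included and on the model. When 1 library was left out, the log2 fold change stayed between -1.11 and -0.86 but the adjusted p ranged from 0.00649 to 0.164, and it was above 0.05 in 6 of 8 such fits, all but those without WT library 4 or Gsdmd-/- library 4. Without WT libraries 2 and 3 the adjusted p was 0.0411. With all 8 libraries and the replicate number as a block it was 0.0835 (edgeR).

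Ciita overlaps a neighbour on the opposite strand, Dexi, with which it shares 329 of its 9535 exonic bases, and whether reads were counted by strand is not stated in the sources used here. Dexi had 20.5 CPM in WT and 16.7 CPM in Gsdmd-/- libraries, with a log2 fold change of -0.30 (edgeR, adjusted p = 0.431).

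**Figure D1:**
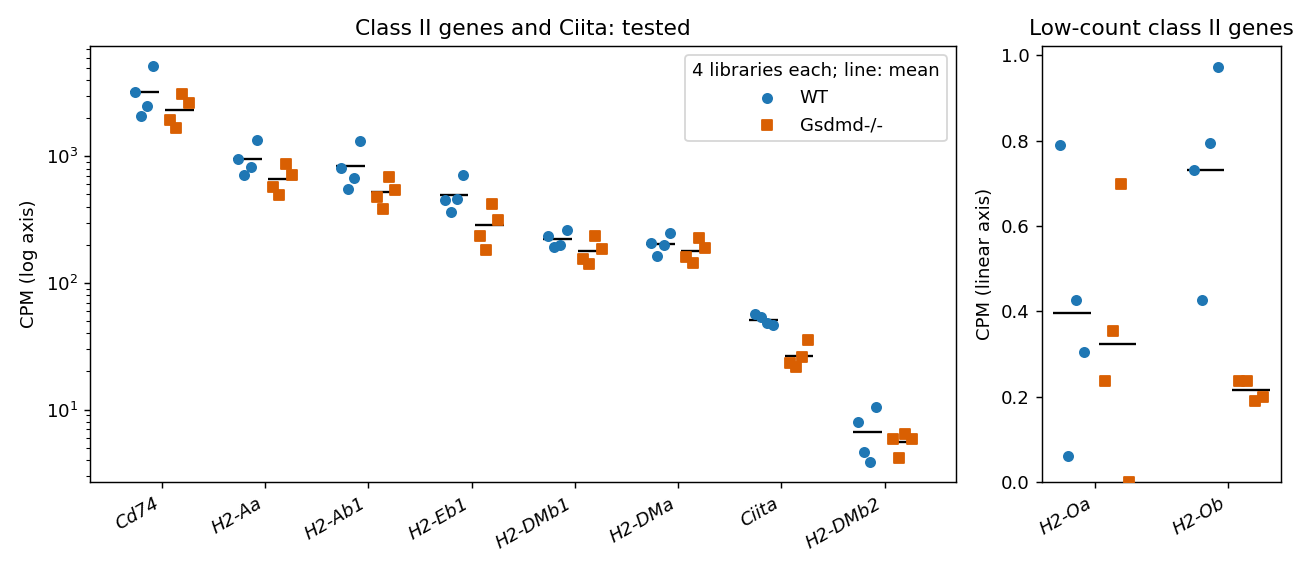
Level of each gene in CPM in the 4 WT and the 4 Gsdmd-/- libraries; each point is 1 library, drawn in order of its replicate number, and the line is the mean. The left panel has a log axis and the right panel, with H2-Oa and H2-Ob, a linear one. Only for Ciita and H2-Ob do the Gsdmd-/- points all lie below the WT points.

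The chains that form the classical surface molecules were lower in the mean of the Gsdmd-/- libraries, but their libraries overlapped. H2-Aa, the I-A alpha chain, had 944.2, 709.8, 825.7 and 1348 CPM in WT and 570.0, 492.9, 875.1 and 709.2 CPM in Gsdmd-/- libraries, in order of replicate number. H2-Ab1, its partner beta chain, had 814.3, 553.3, 674.6 and 1319 CPM in WT and 475.3, 385.3, 688.1 and 538.5 CPM in Gsdmd-/- libraries. WT library 4 was the highest of all for both chains, and Gsdmd-/- library 3 was above WT libraries 2 and 3. H2-Eb1, the I-E beta chain, had 450.2, 360.7, 463.8 and 706.9 CPM in WT and 236.2, 181.9, 422.9 and 316.7 CPM in Gsdmd-/- libraries, where only Gsdmd-/- library 3 reached into the WT range. The alpha chain that would pair with it comes from H2-Ea, a locus that is inactive in C57BL/6 mice, and H2-Ea-ps had at most 1 read in any library.

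The log2 fold changes were -0.78 for H2-Eb1 (standard error 0.266), -0.69 for H2-Ab1 (0.260) and -0.53 for H2-Aa (0.219). None passed over all genes tested, with adjusted p of 0.295, 0.337 and 0.374 (edgeR quasi-likelihood test). In the exact permutation test over the 70 ways to split the 8 libraries, two-sided, whose smallest p is 0.0286, p was 0.0571 for H2-Eb1, 0.0857 for H2-Ab1 and 0.114 for H2-Aa. All 3 were at the cutoff that the study used for its volcano plot, an unadjusted p under 0.05 with a log2 fold change of -0.5 or lower, as was Ciita. These 4 genes were 50% of the 8 genes tested, where 3.28% of all genes tested were at this cutoff. The median log2 fold change of the 8 was -0.50, beside -0.0068 for all genes tested. The set was chosen with results of these libraries known, so neither value is independent evidence.

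Library 4 of WT carried part of these differences. Without it the log2 fold change was -0.32 for H2-Aa, -0.38 for H2-Ab1 and -0.55 for H2-Eb1, and 2 genes, Ciita and H2-Eb1, were left at the cutoff. Of all genes, 704 of 13117 tested were then lower at the cutoff, beside 424 of 12911 with all libraries. The count at the cutoff was also 2 without Gsdmd-/- library 1 and 2 without Gsdmd-/- library 2, where 350 of 13101 and 392 of 13092 genes tested were lower. Without WT libraries 2 and 3 the values went the other way, to -0.79 for H2-Aa (edgeR, adjusted p = 0.128), -1.03 for H2-Ab1 (adjusted p = 0.0717) and -0.9997 for H2-Eb1 (adjusted p = 0.154), and 6 genes were at the cutoff. Of all genes, 418 of 13288 tested were then lower at the cutoff.

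**Figure D2:**
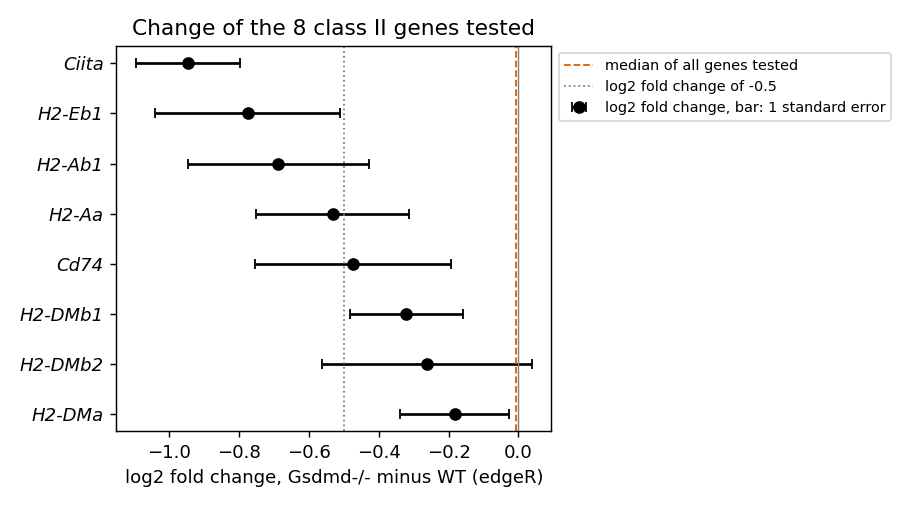
Log2 fold change of Gsdmd-/- against WT for the 8 genes tested, with bars of 1 standard error from edgeR; the dashed line is the median of all genes tested and the dotted line a log2 fold change of -0.5. All 8 points lie below 0, from -0.95 for Ciita to -0.18 for H2-DMa.

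Cd74, the invariant chain (chromosome 18, 60803848 to 60812652), was the most abundant of the group. It had 3202, 2088, 2482 and 5190 CPM in WT and 1925, 1687, 3088 and 2631 CPM in Gsdmd-/- libraries. WT library 4 was again the highest, and WT libraries 2 and 3 lay below Gsdmd-/- libraries 3 and 4. The means were 3240 CPM (SD 1379, n = 4) and 2333 CPM (SD 643, n = 4), and the log2 fold change was -0.47 with a standard error of 0.281 (edgeR, adjusted p = 0.555). It was -0.15 without WT library 4 and -0.85 without WT libraries 2 and 3. Cd74 and the 3 classical chains together took 0.548%, 0.372%, 0.438% and 0.845% of all counts of the WT libraries, and 0.322%, 0.278%, 0.495% and 0.423% of those of the Gsdmd-/- libraries.

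The peptide editors H2-DMa and H2-DMb1 had smaller differences between the genotype means than the classical chains. H2-DMa, the alpha chain, had 206.5, 162.7, 197.6 and 247.3 CPM in WT and 160.2, 144.4, 224.9 and 187.9 CPM in Gsdmd-/- libraries. H2-DMb1, a beta chain, had 235.5, 192.3, 200.1 and 261.6 CPM in WT and 154.1, 139.9, 233.7 and 184.6 CPM in Gsdmd-/- libraries. The libraries overlapped for both genes, and Gsdmd-/- library 3 lay above WT libraries 2 and 3. The log2 fold changes were -0.18 for H2-DMa (standard error 0.157; edgeR, adjusted p = 0.699) and -0.32 for H2-DMb1 (0.163; adjusted p = 0.487). Without WT libraries 2 and 3 they were -0.34 and -0.48. That of H2-DMa was -0.07 without WT library 4, -0.28 without WT library 2, -0.10 without Gsdmd-/- library 2 and -0.31 without Gsdmd-/- library 3. H2-DMa shares 360 of its 3448 exonic bases with Brd2 on the opposite strand, which had a log2 fold change of 0.07.

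H2-DMb2, the second beta chain gene of H2-DM, was low, with 7.91, 4.58, 3.85 and 10.4 CPM in WT and 5.81, 4.14, 6.47 and 5.90 CPM in Gsdmd-/- libraries. All 4 Gsdmd-/- libraries lay within the WT range. Its log2 fold change of -0.26 (standard error 0.300; edgeR, adjusted p = 0.775) turned to 0.04 without WT library 4 and was -0.72 without WT libraries 2 and 3. Of the stretches of 50 bases in H2-DMb1 transcripts, 27.2% also occur in H2-DMb2, so reads of these 2 genes may have been exchanged or dropped in counting and their levels are uncertain. No other pair of the group shared such a stretch.

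H2-Oa and H2-Ob, the chains of the H2-DM inhibitor, which is best known from B cells, had too few reads to pass the filter on low counts. H2-Oa had 13, 1, 7 and 5 reads in WT and 4, 6, 11 and 0 reads in Gsdmd-/- libraries, and it shares 321 of its 1407 exonic bases with BC051537 on the opposite strand, so some of these reads may belong to that gene. H2-Ob had 12, 7, 13 and 16 reads in WT and 4, 4, 3 and 3 reads in Gsdmd-/- libraries. The libraries of H2-Oa overlapped, whereas every Gsdmd-/- library of H2-Ob was below every WT library, with 48 reads in all in WT and 14 in Gsdmd-/-. In a fit of all genes without the filter, H2-Ob had an unadjusted p of 0.00283 and an adjusted p of 0.205 (edgeR). Non-overlap in this direction was seen for 4.12% of all genes tested, and among the 8 genes of the group that were tested only for Ciita.

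Per kilobase of exon, which allows genes to be compared, the mean levels in WT were 1930 CPM/kb for Cd74, 327 for H2-Ab1, 255 for H2-Eb1, 252 for H2-Aa, 132 for H2-DMb1, 59.0 for H2-DMa, 5.37 for Ciita, 3.83 for H2-DMb2, 0.281 for H2-Oa and 0.136 for H2-Ob. Among the 3 classical chains H2-Ab1 had the highest level per kilobase in every library of both genotypes, while the order of H2-Aa and H2-Eb1 differed between WT libraries. Ciita was above H2-DMb2 in WT libraries 1 to 3 and below it in WT library 4. The means in Gsdmd-/- libraries were 1389 CPM/kb for Cd74, 203 for H2-Ab1, 174 for H2-Aa, 149 for H2-Eb1, 106 for H2-DMb1, 52.0 for H2-DMa, 3.19 for H2-DMb2 and 2.79 for Ciita.

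Across the libraries the targets moved together, while their relation with Ciita depended on which libraries were included. Among WT libraries, library 4 was the highest for all 7 targets tested, while Ciita was lowest there. In Gsdmd-/- libraries the order was 3, 4, 1, 2 for all 7 targets, and that of Ciita was 4, 3, 1, 2, the same but for the first 2 places. Since Ciita did not overlap between the genotypes, its relation to the targets was not read from the pooled libraries, and correlations were computed on log2 CPM after the mean of each genotype had been subtracted (n = 8 libraries).

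With Ciita, Pearson's r was 0.206 for H2-Aa, 0.077 for H2-Ab1, 0.255 for H2-Eb1, 0.200 for Cd74, 0.226 for H2-DMa, 0.332 for H2-DMb1 and 0.166 for H2-DMb2. Spearman's rho lay between 0.190 and 0.381. In an exact permutation test over the 576 pairings within genotypes, two-sided, p lay between 0.590 and 0.856 for r and between 0.432 and 0.656 for rho, and the Benjamini-Hochberg adjusted p over the 7 relations was at least 0.788 and 0.656. Without the 2 libraries farthest from the median of Ciita, Gsdmd-/- libraries 4 and 2, r lay between -0.256 and 0.199. Without WT libraries 2 and 3 it lay between 0.146 and 0.398. For H2-Aa with Ciita, r was 0.766 without the 2 libraries farthest from the median of H2-Aa, WT library 4 and Gsdmd-/- library 3 (exact permutation test, adjusted p 0.194). The value of r thus depended on which libraries were included, and with 8 libraries a relation with Ciita was not shown.

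With H2-Aa, the same measure gave r of 0.982 for H2-Ab1, 0.971 for H2-Eb1, 0.987 for Cd74, 0.978 for H2-DMa, 0.946 for H2-DMb1 and 0.819 for H2-DMb2. Spearman's rho was 0.952 for the first 5 and 0.762 for H2-DMb2. In the exact permutation test p lay between 0.00174, the smallest the pairings can give, and 0.0139, and the adjusted p over 7 relations, Ciita included, between 0.00304 and 0.0162. For rho, p lay between 0.00347 and 0.0139 and the adjusted p between 0.0081 and 0.0162. Without the 2 libraries farthest from the median of H2-Aa, WT library 4 and Gsdmd-/- library 3, r was 0.688 for H2-DMb2 and between 0.930 and 0.987 for the other 5, where the adjusted p was at least 0.0648 with 36 pairings left. Without WT libraries 2 and 3 it lay between 0.890, for H2-DMb2, whose adjusted p was then 0.0729, and 0.997. For H2-DMb2 the adjusted p was 0.0729 without WT library 2 (r 0.781) and 0.081 without WT library 4 (r 0.665). The comparison with H2-Aa was added after the values had been seen.

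**Figure D3:**
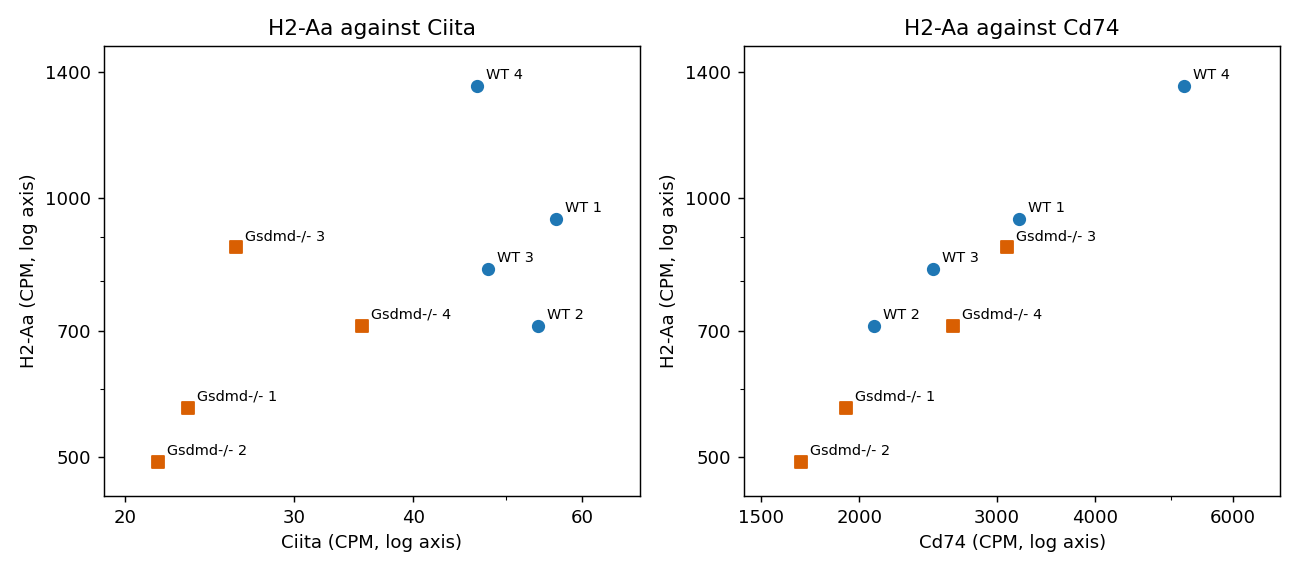
H2-Aa in CPM against Ciita (left) and against Cd74 (right), each point 1 library and all axes on a log scale. On the left, WT library 4 has the most H2-Aa and the least Ciita of the WT libraries, while on the right the libraries of both genotypes rise together.

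The ratio of each gene to H2-Aa was also compared within each library. These ratios were not constant, and in WT library 4, where H2-Aa was highest, H2-DMa (-2.45) and H2-DMb1 (-2.37) had their lowest log2 ratios of the 8 libraries, and Cd74 (1.94) and H2-Ab1 (-0.03) their highest. The log2 ratio of Cd74 to H2-Aa spanned 0.388 over the 8 libraries and that of H2-Ab1 0.366, those of H2-DMb1, H2-Eb1 and H2-DMa 0.549, 0.606 and 0.675, that of H2-DMb2 1.13 and that of Ciita 1.35. H2-DMa was higher relative to H2-Aa in every Gsdmd-/- library, with a mean log2 ratio of -2.21 in WT (SD 0.168, n = 4) and -1.87 in Gsdmd-/- (SD 0.0847, n = 4; exact permutation test, two-sided, p = 0.0286, adjusted p over 7 ratios 0.2). The log2 ratio of H2-Eb1 to H2-Aa had a mean of -0.95 ± 0.0983 in WT and of -1.23 ± 0.165 in Gsdmd-/- libraries, with overlap (exact permutation p = 0.0571, adjusted p 0.2). The differences of the other ratios were -0.12 for H2-Ab1, 0.10 for Cd74, 0.19 for H2-DMb1, 0.36 for H2-DMb2 and -0.44 for Ciita, with permutation p of at least 0.114. These moved with the libraries included. They were, without WT libraries 2 and 3, -0.22 for H2-Ab1, -0.04 for Cd74, 0.30 for H2-DMb1, 0.08 for H2-DMb2 and -0.17 for Ciita. Without WT library 4 they were -0.05 for H2-Ab1, 0.18 for Cd74, 0.09 for H2-DMb1 and -0.66 for Ciita. Without WT library 3 that of H2-DMb2 was 0.19 and that of Cd74 0.06, and that of Cd74 was 0.05 without WT library 2. That of Ciita was -0.29 without WT library 2. With 7 ratios and a smallest p of 0.0286, a single ratio without overlap could not pass the adjustment, so the adjusted p values do not decide whether H2-DMa differed. The ratios were also added after the values had been seen.

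**Figure D4:**
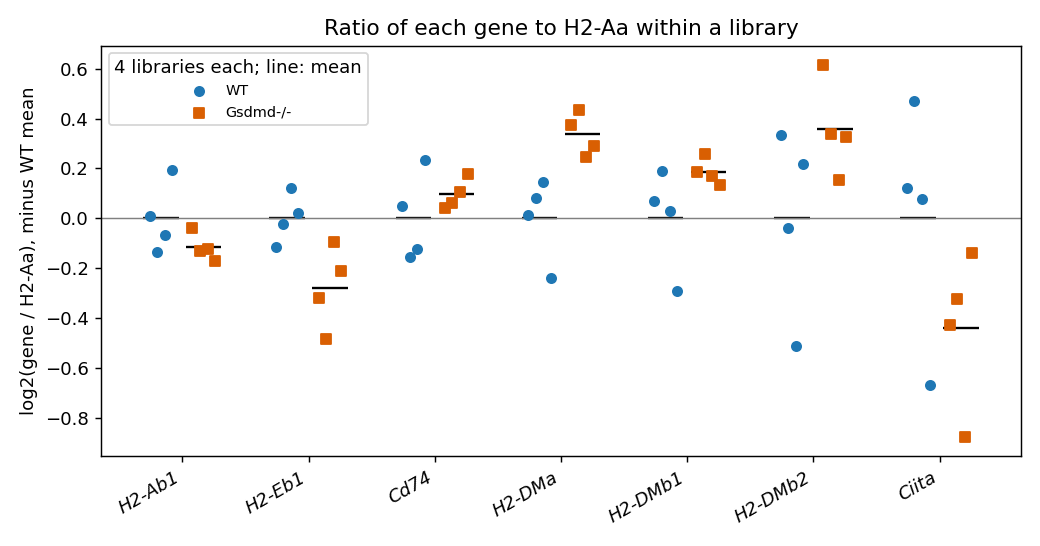
Log2 ratio of each gene to H2-Aa within each library, with the WT mean of that ratio set to 0; each point is 1 library and the line is the mean. The Gsdmd-/- points of H2-DMa all lie above the WT points, and the points of Ciita are the most scattered.

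The other genes of the class II region of chromosome 17 had log2 fold changes near 0. The region from H2-Oa to H2-Eb1 spans 224.3 kb with 20 annotated genes, of which 11 were tested, 6 of the group and 5 others. The others were Brd2, a chromatin reader, and the class I peptide genes Psmb8, Psmb9, Tap1 and Tap2, with log2 fold changes between -0.11 and 0.17 and a median of 0.07. None was at the cutoff or passed an adjusted p of 0.05 (edgeR), and their place between H2-DMb1 and H2-Ab1, Brd2 excepted, is drawn in the plot of the region.

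**Figure D5:**
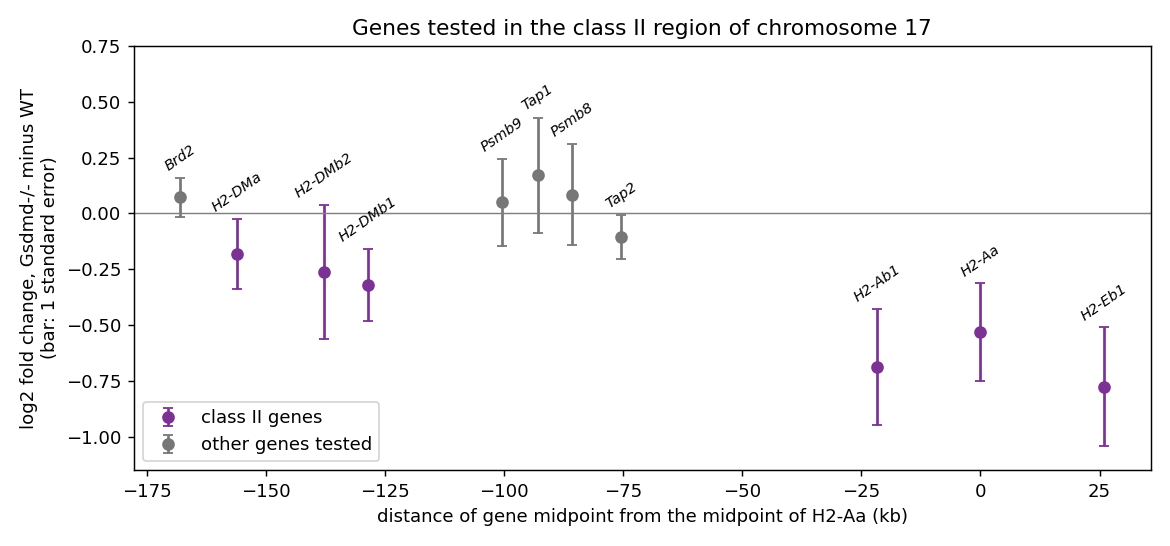
Log2 fold change of Gsdmd-/- against WT, with bars of 1 standard error, of the 11 genes tested in the class II region, at the distance of their midpoint from that of H2-Aa in kb. The 6 genes of the group lie below 0, and the 5 other genes between -0.11 and 0.17.

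None of the genes for the proteins with which Ciita acts at these promoters was at the cutoff. All 8 genes listed for the RFX, CREB and NF-Y parts of the complex were tested, and their log2 fold changes lay between -0.19 for Nfya and 0.17 for Nfyb, with a median of 0.0023. Rfx5, the DNA-binding RFX subunit, had means of 5.38 CPM both in WT (SD 1.03, n = 4) and in Gsdmd-/- libraries (SD 1.22, n = 4).

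Among 14 genes known to control Ciita, from the interferon gamma receptor to the factors at its promoters, all were tested and 1 passed an adjusted p of 0.05. Of all genes tested 0.349% did so. This was Irf1, an interferon-induced activator, with 31.7, 38.9, 44.8 and 44.3 CPM in WT and 21.1, 20.996, 26.6 and 25.2 CPM in Gsdmd-/- libraries. The libraries did not overlap, and the fall of Irf1, between means of 39.9 CPM (SD 6.09, n = 4) and 23.5 CPM (SD 2.88, n = 4), was -0.77 on the log2 scale with a standard error of 0.133 (edgeR, adjusted p = 0.0468). Its adjusted p rose above 0.05 without any 1 library other than WT library 1, up to 0.233 without Gsdmd-/- library 1 (7 of 8 fits), and it was 0.0695 without WT libraries 2 and 3. With all 8 libraries it was 0.0562 with upper-quartile scaling and 0.0546 with limma voom. Within WT, Irf1 was lowest in library 1, where Ciita was highest, while in the Gsdmd-/- libraries Irf1 (3, 4, 1, 2) and Ciita (4, 3, 1, 2) had nearly the same order. The other 13 genes had log2 fold changes of at most 0.38 in size, that of Socs1, an inhibitor of interferon signalling. Among them Irf2 also did not overlap, with 39.4 to 44.7 CPM in WT and 34.9 to 35.4 CPM in Gsdmd-/- libraries. Its log2 fold change was -0.23 (edgeR, adjusted p = 0.279). Non-overlap in this direction was seen for 4.12% of all genes tested. The receptor genes Ifngr1 and Ifngr2 had log2 fold changes of -0.07 and 0.24.

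Of the genes that act on the protein rather than on its promoter, 1 was at the cutoff. None of the 7 genes for the cleavage of the invariant chain and of antigen, among them Ctss and Lgmn, was at the cutoff, with a median log2 fold change of -0.04. Of the 7 genes for traffic and turnover, which include the ubiquitin ligases March1 and March8, it was the tetraspanin Cd81. It had 88.8, 146.5, 155.5 and 109.5 CPM in WT and 72.2, 69.0, 112.4 and 97.0 CPM in Gsdmd-/- libraries, with overlap and a log2 fold change of -0.51 (edgeR, adjusted p = 0.358), which was -0.18 without WT libraries 2 and 3. Plxna1, another gene that Ciita is known to act on, had a log2 fold change of -0.07, while Btn2a2 and the class II locus H2-Eb2 had too few reads to be tested.

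Since other cells of the marrow also carry class II, markers of these cells were read in the same libraries. In bulk RNA, fewer cells of a type and less RNA per cell cannot be told apart. Of 8 B cell markers only Blnk, which macrophages also express, was tested. The B cell genes Ms4a1 and Pax5 had at most 1 read in any library. Iglc1, an immunoglobulin light chain gene, had 5, 0, 0 and 7 reads in WT and 0, 0, 5 and 2 reads in Gsdmd-/- libraries, most in the libraries where class II was highest in each genotype. Cd79a, a part of the B cell receptor, had 5, 0, 5 and 3 reads in WT and 1, 3, 1 and 0 reads in Gsdmd-/- libraries, and Cd79b had 5 reads in WT library 4, 1 in Gsdmd-/- library 3 and 0 elsewhere. Of 12 dendritic cell markers, 7 were tested, all 7 had a log2 fold change below 0 with a median of -0.46, and 2 were at the cutoff. Their summed level was 2319 to 2460 CPM in WT and 1734 to 2141 CPM in Gsdmd-/- libraries, most of it Itgax, which macrophages express as well. Ccr7, a receptor of mature dendritic cells, had 7, 0, 3 and 20 reads in WT and 4, 0, 7 and 2 reads in Gsdmd-/- libraries, most in WT library 4 and, of the Gsdmd-/- libraries, in library 3, as for class II. The defining markers Siglech and Flt3 had 0 reads in every library, except for 2 reads of Flt3 in Gsdmd-/- library 2. Zbtb46, the factor of classical dendritic cells, had reads in every library, with 2.58 CPM in WT (SD 0.407, n = 4) and 1.87 CPM in Gsdmd-/- (SD 0.533, n = 4), a log2 fold change of -0.46 (edgeR, adjusted p = 0.526), which was -0.30 without Gsdmd-/- library 2.

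The 2 dendritic cell markers at the cutoff were Clec9a, a receptor of dead cells, and Batf3, a transcription factor. Clec9a had 16.98, 49.1, 45.3 and 17.6 CPM in WT and 14.5, 16.4, 17.4 and 18.3 CPM in Gsdmd-/- libraries. It was high in WT libraries 2 and 3, the lowest WT libraries for 6 of the 7 class II targets, and its log2 fold change went from -0.95 (edgeR, adjusted p = 0.304) to -0.06 without them. Batf3 had 11.3, 17.6, 20.3 and 18.1 CPM in WT and 9.60, 8.16, 14.02 and 9.15 CPM in Gsdmd-/- libraries, with a log2 fold change of -0.72 (edgeR, adjusted p = 0.232), which was -0.52 without WT libraries 2 and 3. Other markers of the list had the opposite pattern to Clec9a in WT and were low in libraries 2 and 3, as class II was. Mgl2 had 76.9, 21.5, 25.5 and 80.2 CPM and Clec10a 4.44, 2.57, 3.11 and 7.06 CPM in the WT libraries, with log2 fold changes of -0.49 and -0.34 (edgeR, adjusted p of 0.675 and 0.692). Without WT libraries 2 and 3 these were -1.12 for Mgl2 (adjusted p = 0.00858), which then passed, and -0.76 for Clec10a (adjusted p = 0.135), and without WT library 4 that of Clec10a was 0.0073. That of Mgl2 was -0.19 without WT library 4 and -0.22 without WT library 1.

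Of 4 monocyte genes 3 were tested, and Ly6c2 and Ccr2 were low in the same WT libraries as class II. Ly6c2 had 35.5, 1.53, 0.427 and 30.3 CPM and Ccr2 10.8, 2.32, 2.63 and 13.4 CPM in the WT libraries, both lowest in libraries 2 and 3. In Gsdmd-/- libraries Ly6c2 lay between 15.4 and 22.9 CPM and Ccr2 between 2.90 and 4.31 CPM, and neither passed the test (edgeR, adjusted p of 0.953 and 0.507). The macrophage markers Cd68, Fcgr1, Csf1r, Itgam and Lyz2 were also lowest in these WT libraries, with 820.4, 414.1, 423.8 and 849.1 CPM for Cd68 and 36.2, 7.09, 6.66 and 40.7 CPM for Fcgr1 in WT libraries 1 to 4, whereas Mertk was highest in WT libraries 2 and 3. Of the T cell and neutrophil markers 1 each was tested, Cd4 and S100a8, and neither was at the cutoff. The part of any of these cells in the class II values was not tested.

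As a description over the pooled libraries, the genes most like Ciita, by Pearson's r of log2 CPM over the 8 libraries among 12029 genes with a mean of at least 1 CPM, were Myo1f (0.972), Tmem186 (0.972), Slc38a7 (0.967), Cfap43 (0.963) and Rin3 (0.962). Those most like the mean of H2-Aa, H2-Ab1, H2-Eb1 and Cd74 were Kcnn4 (0.982), Myd88 (0.982), Tnfaip8l3 (0.981), Mrps27 (0.979) and Trpv2 (0.976). The first set holds the difference between the genotypes within it, with log2 fold changes between -0.63 and -0.24. In the second set they lay between -0.38 and -0.06, and no gene was in both.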

How the data were processed

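The authors had total RNA extracted with TRIzol, TruSeq libraries made and sequencing done by a company, and deposited 1 table of read counts per gene for 8 libraries, not normalized. The submitters' notes name mm10. The aligner, the counting tool, the annotation and the use of strand are not given in the sources used here. Column labels gave the sample of each column. Fold changes come from edgeR 4.0.16 (R 4.3.3): TMM, filterByExpr (12911 genes left), quasi-likelihood test with genotype as the only term, two-sided, Benjamini-Hochberg adjustment over all genes tested. Log2 CPM use a prior count of 2. Single values were compared by exact permutation of libraries. The method was tested on simulated data. March1 and March8, listed in the table as dates, were matched by identifier. Exon lengths come from GENCODE M21. The genes, lists and tests were chosen with earlier results of these data known; all 10 genes are named, and from each list those at the cutoff or with an adjusted p under 0.05, a further few being given as examples. Alternatives were RLE and upper-quartile scaling, no filter, a minimum of 10 counts per library, DESeq2 1.42.0, limma voom 3.58.1, the replicate number as a block, each library left out, and WT libraries 2 and 3 left out. In the last, the fit pools the spread of the 6 libraries left.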

Additional observations from a re-analysis of the deposited data

How the results depend on the processing

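The log2 fold change of Ciita kept its direction in 16 of 16 alternatives, from -1.11 to -0.86, and its adjusted p was under 0.05 in 9 of them. It was above 0.05 in 6 fits with 1 library left out, which have fewer samples, and with the replicate number as a block (log2 fold change -0.97, adjusted p = 0.0835), where 0 of the genes of the group and 25 of all genes passed. The sources do not state whether same-numbered libraries shared a day or preparation. The correlations of same-numbered libraries' deviations were 0.0268, 0.182, 0.0412 and -0.201, and not every library was most like its own number. These values cannot decide whether the block is the better model. For the 7 other genes tested, 111 of 112 alternative log2 fold changes kept their direction. The exception was H2-DMb2, between -0.453 and 0.0354 with 1 library left out. With 1 library left out, between 2 and 5 genes of the group were at the cutoff and 0 or 1 had an adjusted p under 0.05, the median log2 fold change of the group lay between -0.67 and -0.27, and of all genes 297 to 704 were lower and 155 to 318 higher at the cutoff and 14 to 84 had an adjusted p under 0.05. The last 3 counts were 424, 199 and 45 with all libraries. Without the filter they were 783, 421 and 109, with DESeq2 292 genes had an adjusted p under 0.05, and without WT libraries 2 and 3, 405 genes were higher at the cutoff, 161 had an adjusted p under 0.05 and the median of the group was -0.82. The cause of these shifts was not tested.

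Correlations with Ciita changed sign or size with the libraries included. Without the 2 libraries farthest from its median, r was -0.147 for H2-Aa, -0.256 for H2-Ab1, -0.189 for H2-Eb1, -0.176 for Cd74, -0.106 for H2-DMa and -0.021 for H2-DMb2, and with 1 library left out it ranged from -0.071 to 0.525 for H2-Aa, from -0.193 to 0.433 for H2-Ab1, from -0.096 to 0.499 for H2-Eb1, from -0.022 to 0.593 for Cd74, from -0.073 to 0.442 for H2-DMa and from -0.043 to 0.495 for H2-DMb2. The negative values with 1 library left out came without Gsdmd-/- library 2. The log2 fold change of Clec10a lay between -0.526 and 0.0073 with 1 library left out. The log2 ratio of Cd74 to H2-Aa turned to -0.043 without WT libraries 2 and 3. Depth limits H2-Oa and H2-Ob, with at most 16 reads in a library.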
